A study of Homo sapiens with 10 samples.

Results

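NODAL, LEFTY1, LEFTY2, TDGF1, GDF3, CER1 and FOXH1 are the 7 genes described here, taken by symbol from the 42335 gene symbols of a bulk RNA sequencing series on human neural differentiation. They hold the ligands NODAL and GDF3, the coreceptor TDGF1, the transcription factor FOXH1 and the secreted antagonists LEFTY1, LEFTY2 and CER1. NODAL is a ligand of the TGF beta family. It binds activin receptors together with a coreceptor of the EGF-CFC family, and the receptors phosphorylate SMAD2 and SMAD3, which join SMAD4 and FOXH1 on DNA. NODAL and the LEFTY genes are themselves targets of the pathway, so the ligand and its antagonists form a feedback loop. In the early embryo the pathway patterns mesoderm and endoderm, human stem cells use it to stay pluripotent, and its block favours neural fate.

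The 10 libraries came from H9, an established human embryonic stem cell line. Wild-type cells (Ctrl) and cells of genotype SOX1-OT V1 PAKI (V1PAKI) gave 1 library each at d0, d4 and d10 and in the day 16 arms d16D and d16V. What PAKI and the arm letters stand for, and whether the edited line is 1 clone, the labels do not say. Per the labels' protocols the cells grew as suspended embryoid bodies without FGF-2, met neural medium on day 4 and were attached on day 7, and ventral cultures received Shh at 200 ng/ml with the hedgehog agonist SAG at 1.5 µM from day 10.

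Values are FPKM, fragments scaled by transcript length and by library total, so levels of different genes are compared per length. FPKM summed to between 200509 and 256270 a library, and depth in reads is unknown. The d0 libraries are labelled as stem cells, and POU5F1 stood at 326 FPKM in Ctrl and 385 FPKM in V1PAKI there. The d4 libraries are labelled as neural progenitors, yet SOX1, a defining neural progenitor gene, was at 0.0605 and 0.0613 FPKM and POU5F1 still at 268 and 328 FPKM in Ctrl and V1PAKI. At d16D and d16V SOX1 lay between 7.38 and 32.6 FPKM. The d16D and d16V cells of 1 line may come from a common culture until day 10, and nothing marks separate cultures, so p-values measure only the spread between the lines and stages.

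**Figure D1:**
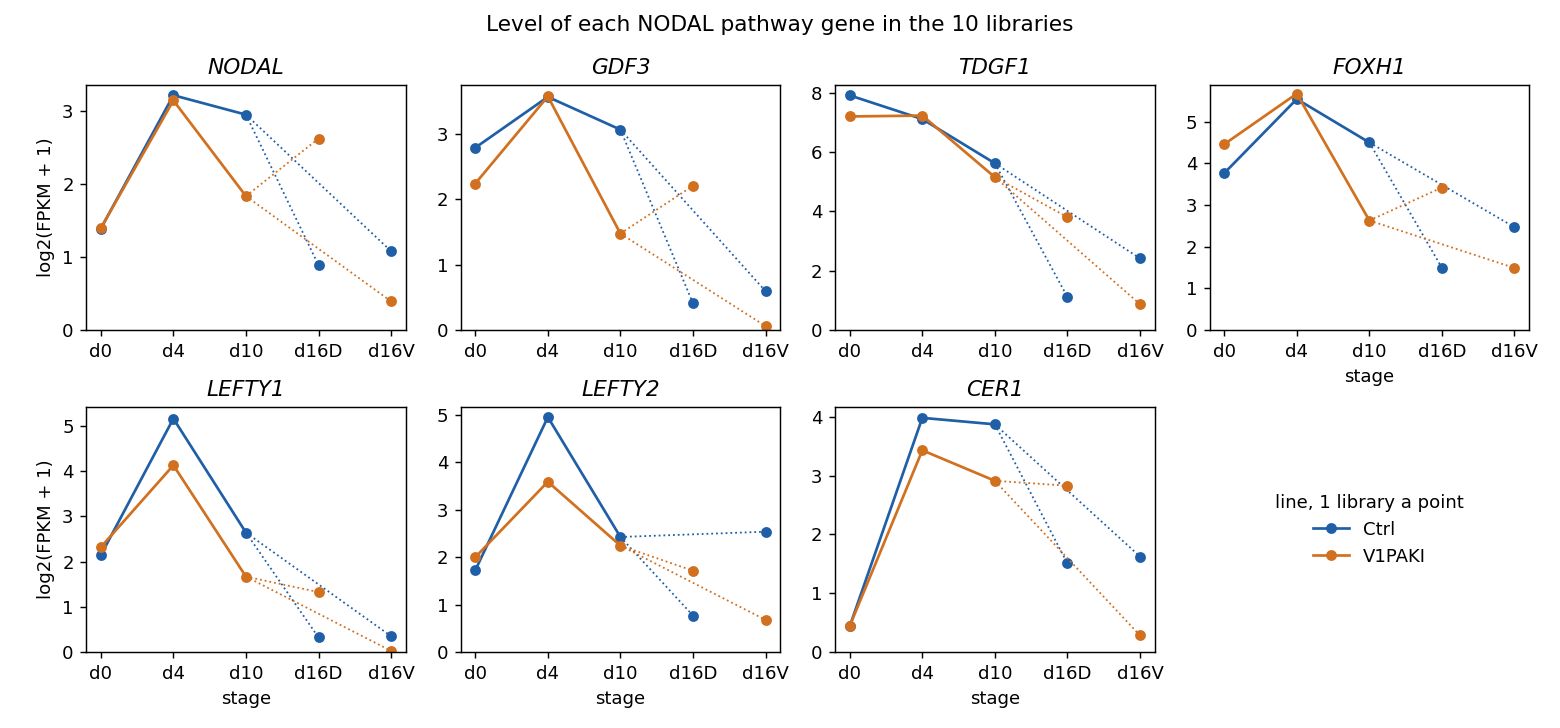
Level of each gene as log2(FPKM + 1) on the vertical axis at the 5 stages on the horizontal axis, with 1 library a point, Ctrl in blue and V1PAKI in orange; dotted lines join d10 to each day 16 library. NODAL, LEFTY1, LEFTY2, GDF3, CER1 and FOXH1 peak at d4 in both lines, TDGF1 is already high at d0, and the V1PAKI d16D point lies above the Ctrl d16D point in all 7 panels.

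NODAL, the ligand, was low in stem cells and highest in day 4 embryoid bodies. In Ctrl it stood at 1.62 FPKM at d0, 8.31 at d4, 6.74 at d10, 0.855 at d16D and 1.12 at d16V. In V1PAKI the same stages gave 1.64, 7.86, 2.57, 5.17 and 0.315 FPKM. The lines were close at d0 and d4, and from d10 on they lay apart, with Ctrl higher at d10 and d16V and V1PAKI higher at d16D. From d0 to d4 the FPKM ratio was 5.12 in Ctrl and 4.80 in V1PAKI. GENCODE release 29 places NODAL at chr10:70432315-70447951 on the minus strand (GRCh38).

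GDF3, a TGF beta family protein that can signal through the same receptors and can also bind BMPs, followed a similar course at a higher starting level. Ctrl libraries held 5.89, 10.8, 7.34, 0.329 and 0.511 FPKM from d0 through d4, d10 and d16D to d16V. V1PAKI libraries held 3.72, 10.9, 1.78, 3.61 and 0.0444 FPKM in that order. At d4 V1PAKI minus Ctrl was 0.01 on the log2(FPKM + 1) scale, whereas Ctrl was 4.13-fold higher at d10 and V1PAKI higher by 1.79 on that scale at d16D. GDF3 lies at chr12:7689782-7695776 in a cluster of stem cell genes, 15.7 kb from DPPA3 and 92.0 kb from NANOG. Of these neighbours DPPA3 shared the d4 peak. It stood at 1.66 and 0.924 FPKM at d0, 6.30 and 7.50 at d4 and 0.704 and 0.647 at d10 in Ctrl and V1PAKI. NANOG did not share the d4 peak, at 16.4 and 16.2 FPKM at d0 and 10.8 and 14.8 at d4 in Ctrl and V1PAKI.

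TDGF1, also called CRIPTO, is the membrane-bound coreceptor that lets NODAL engage its receptors, and it was the most abundant of the 7 genes in 7 of 10 libraries. At d0 its level was 239 FPKM for Ctrl and 146 for V1PAKI, against 137 and 149 at d4. It then stood at 48.2 and 34.6 FPKM at d10, 1.17 and 13.0 at d16D, and 4.34 and 0.835 at d16V. Stem cells and day 4 bodies were thus both high and overlapped between the lines, and every day 16 library lay below every d10 library. limma, a linear model fitted over all 15779 genes that reached 1 FPKM in at least 2 libraries, put the change from d0 to d16D at -5.09 on the log2(FPKM + 1) scale (SE 0.83, adjusted p = 0.00666), lower in both lines. To d16V the change was -5.91 (SE 0.83, adjusted p = 0.00408), again lower in both lines, so TDGF1 fell in both arms. Without the Ctrl d0 library the d16D fall was -4.64 with adjusted p = 0.0646.

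Reads of TDGF1 can be shared with its processed copies. The X-linked copy TDGF1P3 reached 4.71 FPKM at most, in V1PAKI d4, against 149 FPKM for TDGF1 in that library, and it fell too, by 1.48 on the log2 scale to d16D (SE 0.29, limma adjusted p = 0.0119) and by 1.65 to d16V (SE 0.29, adjusted p = 0.00824). TDGF1 at chr3:46574534-46582463 also overlaps LRRC2 on the other strand. LRRC2 lay between 0.0226 and 2.04 FPKM. Since no strand setting is known, reads of TDGF1 and LRRC2 cannot be told apart at the low day 16 values.

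FOXH1, the DNA-binding partner of SMAD2 and SMAD3 in this pathway, was already present in stem cells and peaked at d4. Ctrl gave 12.6 FPKM at d0, 45.5 at d4, 21.6 at d10, 1.82 at d16D and 4.53 at d16V. V1PAKI gave 21.0, 49.9, 5.19, 9.70 and 1.81 FPKM. Both d4 libraries stood above every other library, and at d10 Ctrl was 4.17-fold higher than V1PAKI. FOXH1, on chromosome 8, overlaps the kinesin gene KIFC2 on the opposite strand, which lay between 2.18 and 8.56 FPKM, so the lowest FOXH1 values carry the same doubt about strand.

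LEFTY1 and LEFTY2 encode secreted antagonists that block NODAL and its coreceptor, and both showed a sharp d4 peak. LEFTY1 was at 3.43, 34.8, 5.25, 0.254 and 0.279 FPKM in Ctrl at d0, d4, d10, d16D and d16V. V1PAKI held 4.00, 16.5, 2.18, 1.51 and 0.0218 FPKM of LEFTY1 at these stages. LEFTY2 ran at 2.32, 30.0, 4.38, 0.709 and 4.82 FPKM in Ctrl and at 3.01, 11.1, 3.74, 2.29 and 0.604 FPKM in V1PAKI. For both genes the d4 libraries of both lines stood above all others, and Ctrl at d4 was 2.11-fold (LEFTY1) and 2.71-fold (LEFTY2) above V1PAKI. LEFTY1 fell from d0 to d16V in limma (-2.04 on the log2 scale, SE 0.47, adjusted p = 0.0199, lower in both lines).

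The LEFTY genes parted at d16V in Ctrl, where LEFTY2 was the highest of the 7 genes at 4.82 FPKM while LEFTY1 was at 0.279 FPKM. They are near-identical copies on chromosome 1, LEFTY1 at chr1:225886282-225911382 and LEFTY2 at chr1:225936598-225941489. Their models lie 25.2 kb apart, so the split of reads between them is uncertain. GENCODE also lists AL117348.2 over LEFTY1 on the same strand, at up to 2.18 FPKM.

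CER1, a secreted antagonist that binds NODAL and BMPs and marks anterior endoderm of the embryo, was the only member below 1 FPKM in stem cells. Ctrl held 0.359 FPKM at d0, 14.8 at d4, 13.6 at d10, 1.84 at d16D and 2.08 at d16V. V1PAKI held 0.363, 9.76, 6.52, 6.09 and 0.219 FPKM. The FPKM ratio of d4 to d0 was 41.2 in Ctrl and 26.9 in V1PAKI, the widest of the 7 genes in each line. From d4 to d10 its level differed by -0.11 in Ctrl and -0.52 in V1PAKI on the log2(FPKM + 1) scale, against -2.52 and -2.46 for LEFTY1.

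All members but TDGF1 were highest at d4 in both lines, and FOXH1 is a member. The 250 bases before the start of 4 of the 7 members in the RefSeq promoter table (GRCh38.p14) were therefore searched on both strands for 5 motifs. These were AATCCACA and AATACACA for FOXH1, CAGACA for SMAD, ATGCAAAT for POU factors and ACAAAG for SOX factors. NODAL, TDGF1 (listed as CRIPTO, with 2 starts), GDF3 and CER1 were searched. FOXH1, LEFTY1 and LEFTY2 were not. The stretches of CER1 (chr9:14722734-14722983, minus strand), GDF3 (chr12:7695776-7696025, minus strand) and NODAL (chr10:70441682-70441931, minus strand) are shown to set the antagonist with the widest d4 ratio beside both ligands. Capitals mark the motifs and no motif overlapped another.
CER1: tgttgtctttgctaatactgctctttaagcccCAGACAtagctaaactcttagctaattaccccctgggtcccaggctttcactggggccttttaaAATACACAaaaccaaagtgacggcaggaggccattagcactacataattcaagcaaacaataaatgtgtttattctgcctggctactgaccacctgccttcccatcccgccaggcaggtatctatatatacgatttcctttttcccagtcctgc
GDF3: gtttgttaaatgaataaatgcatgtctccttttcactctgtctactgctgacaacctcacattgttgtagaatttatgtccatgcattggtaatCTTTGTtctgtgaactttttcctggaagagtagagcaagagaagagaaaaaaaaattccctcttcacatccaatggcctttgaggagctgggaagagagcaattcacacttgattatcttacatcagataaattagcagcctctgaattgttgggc
NODAL: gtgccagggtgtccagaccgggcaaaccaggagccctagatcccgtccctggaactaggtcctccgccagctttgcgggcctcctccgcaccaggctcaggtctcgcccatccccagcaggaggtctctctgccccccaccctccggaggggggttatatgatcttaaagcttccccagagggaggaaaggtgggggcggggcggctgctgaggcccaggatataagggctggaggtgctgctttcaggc
In CER1 the capitals are CAGACA, from base -218 to base -213 before the start, and AATACACA, from -154 to -147. The capitals of GDF3 are ACAAAG read from the other strand (-156 to -151), and neither NODAL nor either TDGF1 stretch held any of the 5 motifs. The NODAL stretch lies before the RefSeq start but inside the GENCODE gene, which runs to base 70447951. Bases before the GENCODE start of NODAL were not searched. Of 35116 stretches of this length in the table, 0.666% held AATACACA, 0.709% AATCCACA, 13.6% CAGACA, 1.63% ATGCAAAT and 13.7% ACAAAG. A match describes letters and is no evidence of binding.

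**Figure D2:**
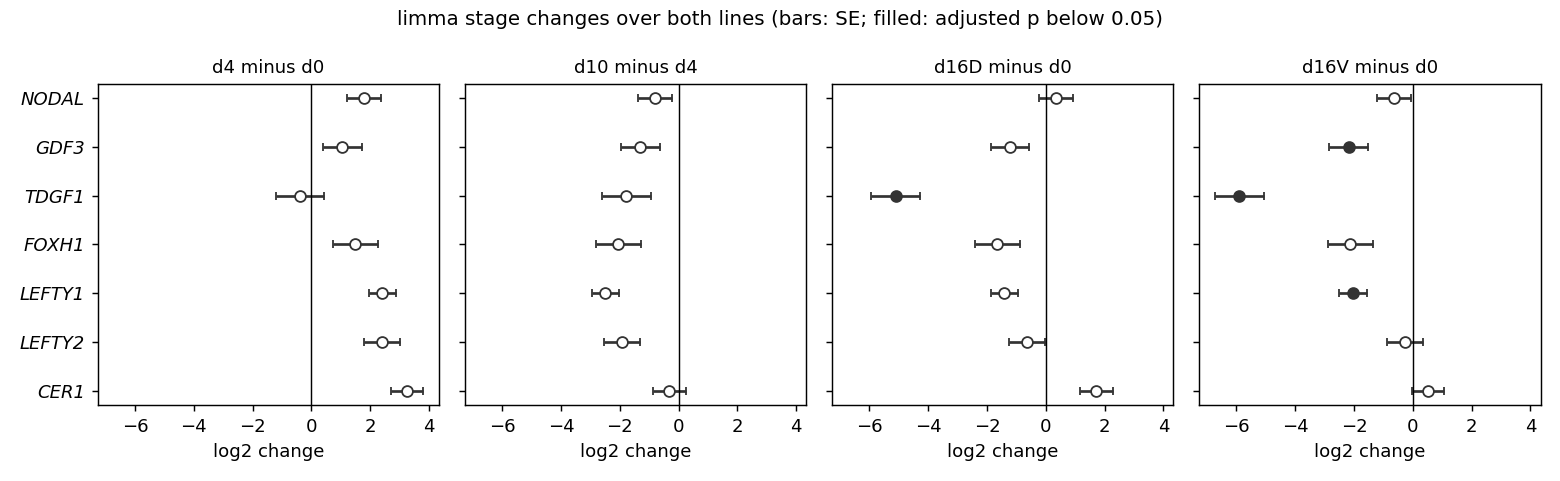
limma log2 change of each gene over both lines (horizontal axis, bars are the SE, filled points have an adjusted p below 0.05) for d4 minus d0, d10 minus d4, d16D minus d0 and d16V minus d0. All members but TDGF1 lie right of 0 at d4, and the filled points are TDGF1 in both day 16 panels with GDF3 and LEFTY1 at d16V.

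The stage changes were tested over both lines, with line as a block and the 10 libraries sharing one estimate of spread. From d0 to d4, 6 of 7 members were above 0, with a median log2 change of 1.79 beside 0.00 over all 15779 genes, and 0 of 7 passed at the adjusted threshold of 0.05. In limma 4 of 7 had an unadjusted p below 0.05, as did 1870 of all 15779 genes. At the adjusted threshold, with all libraries, 0.507% of genes tested rose and 0.311% fell in this comparison. CER1 had the largest value and narrowly missed (3.26, SE 0.55, limma adjusted p = 0.0501), followed by LEFTY1 (2.41, SE 0.47, adjusted p = 0.0712). LEFTY2 stood at 2.41 (SE 0.61, limma adjusted p = 0.157) and NODAL at 1.79 (SE 0.58, adjusted p = 0.282). FOXH1 was at 1.49 (SE 0.77), GDF3 at 1.05 (SE 0.65) and TDGF1 at -0.38 (SE 0.83). Under median-of-ratios scaling CER1 passed (3.27, limma adjusted p = 0.0479), and leaving out either d16D library brought in LEFTY1 and CER1.

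From d4 to d10 all 7 values were below 0, with a median of -1.78 beside -0.01 over all genes. Again 0 of 7 passed. In limma 3 of 7 had an unadjusted p below 0.05, as did 2397 of all 15779 genes. At the adjusted threshold 0.919% of all genes rose and 0.52% fell. LEFTY1 came nearest at -2.49 (SE 0.47, limma adjusted p = 0.0504), while CER1 stood at -0.31 (SE 0.55, adjusted p = 0.839). With median-of-ratios scaling LEFTY1 passed (-2.52, limma adjusted p = 0.0473), as it did without either d16D library. From d10 to either day 16 arm, and between the arms, 0 of 7 passed in limma. For d16D minus d10, d16V minus d10 and d16V minus d16D, 2, 5 and 0 members had an unadjusted p below 0.05. Over all 15779 genes 2677, 3140 and 842 did. The shares of all genes called were 0.551% up and 0.38% down, 0.52% up and 0.292% down, and 0.196% up and 0.165% down in these 3 comparisons. Without the Ctrl d16D or the V1PAKI d16D library 5 of 7 members (TDGF1, LEFTY1, CER1, GDF3 and NODAL) fell from d10 to d16V. The shares of all genes above are from the fit with all libraries. They are no background for this count.

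Against stem cells, 1 of 7 members fell and 0 rose by d16D, beside 10.8% of all genes that fell and 11.8% that rose. By d16V 3 of 7 fell and 0 rose, beside 11.1% and 12.6%. These shares are from the fit with all libraries and are no background for counts with a library left out. TDGF1 fell in both arms, and LEFTY1 and GDF3 (-2.18, SE 0.65, limma adjusted p = 0.0471) in d16V. NODAL was not called in either arm (0.36, SE 0.58, adjusted p = 0.673 in d16D; -0.66, SE 0.58, adjusted p = 0.440 in d16V), and its 95% intervals ran from -0.98 to 1.71 and from -2.00 to 0.69. CER1 alone stood above 0 in both arms, at 1.72 (SE 0.55, limma adjusted p = 0.0597) and 0.51 (SE 0.55, adjusted p = 0.532), and with TPM in place of FPKM it passed at d16D (2.78, adjusted p = 0.0345). Without Ctrl d16D it passed as well. Without the V1PAKI d16D library 4 of 7 fell by d16D (TDGF1, FOXH1, LEFTY1 and GDF3). The d16V calls of LEFTY1 and GDF3 were lost without Ctrl d0, V1PAKI d0, Ctrl d16V or V1PAKI d16V, which left TDGF1 alone, and that of GDF3 also without either d4 library. FOXH1 stood at -2.13 in d16V (SE 0.77, limma adjusted p = 0.0797) and passed without either d10 or either d16D library (adjusted p from 0.0323 to 0.0443).

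The stages could be ordered only in part. Both d4 libraries lay above the 8 libraries of the other stages for 5 of 7 members, NODAL, LEFTY1, LEFTY2, GDF3 and FOXH1, beside 6.65% of all 15779 genes tested. For CER1 d4 and d10 overlapped, and for TDGF1 d0 and d4 overlapped. At the low end d16D and d16V overlapped between the lines for all 7 members, so their order there is not set.

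**Figure D3:**
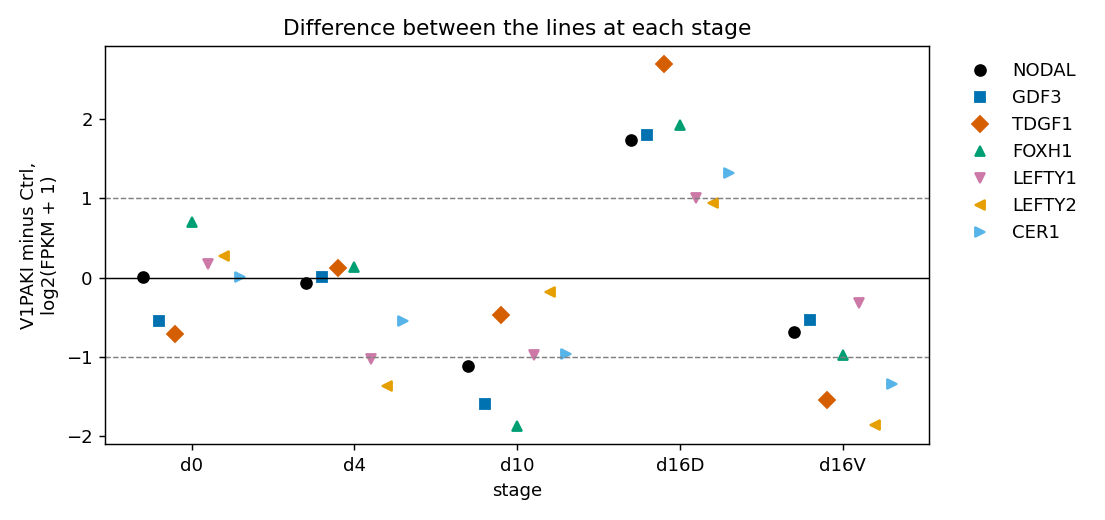
V1PAKI minus Ctrl on the log2(FPKM + 1) scale (vertical axis) for each gene at each stage, with 1 library of each line behind a point and dashed lines at a difference of 1 in either direction. All 7 genes are below 0 at d10 and d16V and above 0 at d16D.

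The direction of the line difference depended on the stage: all 7 members were lower in V1PAKI at d10 and d16V and higher at d16D, while at d0 and d4 they were mixed. Their median differences were -0.97 at d10, 1.73 at d16D and -0.98 at d16V. Over all genes with 1 FPKM in either library the medians were -0.04, -0.10 and -0.07. The members correlate across the libraries, so 7 of 7 are not 7 independent observations. Over the 5 stages limma called 0 of 7 members for line, beside 0% of genes higher and 0.019% lower in V1PAKI. At an unadjusted p below 0.05 there were 0 members, beside 390 of 15779 genes. The line term averages over stages, so opposite differences cancel in it and widen its spread. It therefore cannot decide on a difference that changes direction between stages. At single stages each line has 1 library and no test is possible. At d10 all 7 members were lower in V1PAKI, 3 of them by at least 1 on the log2 scale, beside 7.45% of genes that low and 3.78% that high among those with 1 FPKM in either library. These were FOXH1 (-1.87), GDF3 (-1.59) and NODAL (-1.12), while LEFTY2 (-0.18) differed least. At d16D all 7 were higher in V1PAKI, 6 by at least 1, beside 5.5% of genes that high and 3.46% that low. TDGF1 led with 2.69, and LEFTY2 was just under 1 at 0.94.

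At d16V all 7 were lower in V1PAKI again, and of the 5 with 1 FPKM in either library LEFTY2 (-1.86), TDGF1 (-1.54) and CER1 (-1.34) were lower by at least 1, beside 2.49% of genes that low and 0.412% that high. The directions at d10, d16D and d16V were alike with TPM and with median-of-ratios scaling. At d4 the LEFTY genes were lower in V1PAKI by at least 1 (LEFTY1 -1.03, LEFTY2 -1.36), 2 of 7 beside 0.857% of genes that low and 0.797% that high, and NODAL (-0.07) and GDF3 (0.01) hardly differed. With median-of-ratios scaling 1 of them stayed past 1. At d0 0 of 6 members with 1 FPKM differed by 1, beside 3.73% of genes higher and 0.82% lower, and TDGF1 (-0.71) and FOXH1 (0.69) differed most.

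**Figure D4:**
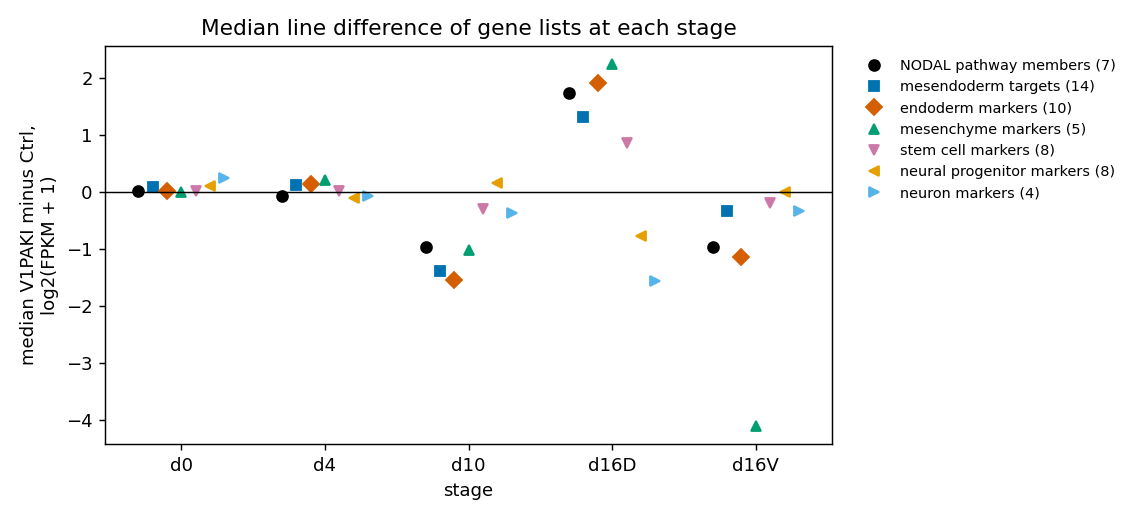
Median V1PAKI minus Ctrl difference on the log2(FPKM + 1) scale (vertical axis) of the 7 NODAL pathway genes and of 6 other gene lists at each stage, with list sizes in the legend. At d10 and d16D the NODAL pathway genes (-0.97 and 1.73) lie on the same side of 0 as the mesendoderm, endoderm, mesenchyme and stem cell lists. At d16D the neural lists lie on the other side.

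Markers of endoderm, mesoderm and mesenchyme had median line differences in the same direction as the members at d10, d16D and d16V. So did the amnion and trophoblast markers (-1.17, 1.04 and -0.40), so the direction was not particular to 1 cell type. Stem cell markers had medians of -0.30, 0.85 and -0.20 but were mixed. Of these 8 markers 3, 6 and 3 were above Ctrl by value in V1PAKI at d10, d16D and d16V. Their summed FPKM at d16V was 465 in Ctrl and 541 in V1PAKI. Summed FPKM of 10 endoderm markers was 225 in Ctrl and 36.7 in V1PAKI at d10, 417 and 2380 at d16D, and 250 and 22.2 at d16V. Of those with 1 FPKM in either library, 7 of 7 were lower in V1PAKI by at least 1 at d10, 8 of 9 higher at d16D and 5 of 7 lower at d16V. Of mesoderm markers with 1 FPKM in either library, 6 of 7 were lower in V1PAKI by at least 1 at d10, 5 of 7 higher at d16D and 3 of 4 lower at d16V. The 7 mesoderm markers summed to 253 and 45.8 FPKM at d10, 17.3 and 164 at d16D and 26.1 and 1.91 at d16V in Ctrl and V1PAKI. HAND1 alone held 223 and 41.4, 8.41 and 134, and 19.9 and 0.734 FPKM of these. The 5 mesenchyme markers summed to 689 and 174, 154 and 958, and 258 and 11.3 FPKM. At d4 no endoderm, mesoderm or mesenchyme marker with 1 FPKM in either library differed by 1. By value at d4, 7 of 10 endoderm markers (median 0.14, sums 21.2 and 34.5 FPKM) were above Ctrl in V1PAKI. So were 4 of 5 mesenchyme markers (median 0.21) and 2 of 7 mesoderm markers (median -0.20), beside a median of -0.05 over all genes with 1 FPKM. Only 4 markers of each of these lists had 1 FPKM in either library, so signs of the others rest on low values. At d0 7 of 10 endoderm markers in Ctrl and 5 in V1PAKI were listed at 0, and the sums were 0.196 and 0.853 FPKM.

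Stem cell and neural markers differed at d16D too. There 4 of 8 stem cell markers were higher in V1PAKI by at least 1 (POU5F1 34.2 against 5.64 FPKM in Ctrl), 2 of 8 neural progenitor markers lower and 4 of 4 neuron markers lower. The part of each of these cell types in the member differences was not tested. In bulk samples fewer cells of a type and less RNA per cell cannot be told apart.

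Of the receptors, ACVR1B, a type I receptor, lay between 7.05 and 9.14 FPKM in all 10 libraries and ACVR2B, a type II receptor, between 7.00 and 13.9. ACVR2A, also a type II receptor, ran from 1.71 FPKM in V1PAKI d4 to 5.02 in Ctrl d16D. It rose by d16D (0.87, SE 0.21, limma adjusted p = 0.0257), the only call among 4 tested receptors and coreceptors in that comparison, and there was none at d4 or d16V. Over all genes 11.8% rose and 10.8% fell by d16D, and 12.6% rose and 11.1% fell by d16V. These shares are the background for the day 16 calls of this list and those below. ACVR1C was never above 0.27 FPKM and was not tested. CFC1, the other EGF-CFC coreceptor, was highest at d10 in Ctrl and at d16D in V1PAKI. It was listed at 0 in Ctrl d0 and stood at 0.0390 FPKM in V1PAKI d0, then at 1.83 and 3.56 at d4, 3.15 and 0.594 at d10, 0.408 and 4.10 at d16D and 0.479 and 0.0912 at d16V. Its near-identical copy CFC1B was listed at up to 2.81 FPKM, in V1PAKI d4, so the split of reads between them is uncertain.

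Of 8 SMAD transducers and partners, 0 passed from d0 to d4 (median 0.13), SMAD3 rose by 1.66 (SE 0.23, limma adjusted p = 0.00353) and POU5F1 fell by 4.54 by d16D (SE 0.76, adjusted p = 0.00721). At d16V SMAD3 rose by 1.52 (SE 0.23), POU5F1 fell by 4.88 (SE 0.76) and TCF7L1, a WNT pathway repressor, fell by 1.27 (SE 0.36). Among 8 tested related ligands and convertases 0 passed at d4, with a median of 0.50. GDF11, a related ligand, rose in both arms (1.75 and 1.74, SE 0.30 each, limma adjusted p = 0.00809 and 0.00810), with the convertase PCSK5 in both (1.13 and 1.34, SE 0.21 each) and TGFB2 at d16D (1.51, SE 0.29). TGFB2 and PCSK5 also rose from d4 to d10.

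Of 14 antagonists and feedback inhibitors 0 passed from d0 to d4 (median 0.09), where FST, a secreted activin antagonist, stood at 3.45 and 1.77 FPKM at d0 and 16.4 and 14.3 at d4. FST rose by 2.30 (SE 0.44, limma adjusted p = 0.0113) to d16D and by 3.60 (SE 0.44, adjusted p = 0.00244) to d16V. The nuclear repressors TGIF1 and SKIL fell in both arms, by 1.44 and 1.98 at d16D and by 1.25 and 1.67 at d16V. The feedback inhibitor PMEPA1 fell (-1.29) and LTBP1, which stores latent TGF beta in the matrix, rose (1.01) at d16V.

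Of 13 tested mesendoderm targets 12 were above 0 from d0 to d4 (median 0.67 beside 0.00 over all genes) and 0 passed, with HHEX, GATA6 and MIXL1 the largest. EOMES (2.65, SE 0.48, limma adjusted p = 0.00913) and WNT3 (1.00, SE 0.22, adjusted p = 0.0188) rose by d16D, and GSC (1.64, SE 0.25) and FOXA2 (3.18, SE 0.48) by d16V. These 2 of 13 in each arm stand beside 11.8% and 12.6% of all genes that rose. FOXA2 is also a floor plate gene. SOX17, an endoderm factor chosen after its values were seen, showed the line pattern of the members. It stood at 5.69 and 0.841 FPKM at d10, 0.575 and 7.17 at d16D, and 0.727 and 0 at d16V in Ctrl and V1PAKI. Of all 14 mesendoderm targets 1, 12 and 2 were above Ctrl by value in V1PAKI at d10, d16D and d16V. EOMES was lower in V1PAKI at d16D (4.94 against 5.87 FPKM in Ctrl). At d16V GSC (2.71 against 1.86) and FOXA2 (10.98 against 8.12) were higher in V1PAKI. Of the mesendoderm targets 8 also stand in the endoderm or mesoderm marker lists.

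Across the 10 libraries the 21 pairs of members had Pearson correlations of log2(FPKM + 1) between 0.286 (TDGF1 with CER1) and 0.959 (GDF3 with FOXH1), with a median of 0.820. Libraries of 1 stage and of 1 line are not independent, so these values only describe the shared course. Among 9014 tested genes whose log2 range was at least 1, the nearest to NODAL were SLC22A3 (r = 0.998), an organic cation transporter, the desmosome gene PKP3 (0.985) and CAVIN3 (0.984). Nearest to TDGF1 were TRIML2 (0.994), the epithelial splicing factor ESRP1 (0.993) and ZC3HAV1 (0.992). GDF3 was closest to SRM (0.981), FAM174B (0.979) and PPP1R3B (0.977), and FOXH1 to ARHGEF35 (0.983), the neuropeptide gene GAL (0.983) and LAD1 (0.980). Among the antagonists LEFTY1 was closest to ZYG11A (0.985), GRPR (0.980) and FP236383.3 (0.974), CER1 to FAM43A (0.967), UPK2 (0.962) and HPGD (0.954), and LEFTY2 to PCP4L1 (0.930), FA2H (0.923) and FAM50B (0.921).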

How the data were processed

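Bulk RNA sequencing was measured in 10 libraries, 1 for each of 2 lines at 5 stages. The authors deposited FPKM values, and per the submitters' processing notes the tools were cutadapt 1.18, HISAT2 2.1.0 and Cufflinks with GRCh38. They used an annotation, filters and a strand setting not given in the sources used here. All columns matched a sample by name and no 2 libraries held the same values. Sequencing depth is unknown, so no counting intervals or floors were computed.

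A pseudocount of 1 was added before the log2 transform, log2(FPKM + 1), which understates the change of low genes. A gene was tested when 2 or more libraries reached 1 FPKM. This left 15779 genes, all 7 members among them, fitted with limma 3.58.1 in R 4.3.3 (trend in eBayes, stage and line as terms, 4 residual degrees of freedom, 7.77 after moderation). Tests were two-sided, with Benjamini-Hochberg adjustment over all genes and a threshold of 0.05. The fit was tested on simulated data. Alternatives were a pseudocount of 0.1, no filter, a filter at 5 FPKM, TPM, median-of-ratios scaling, no block, each library left out and averaged day 16 libraries. The members and gene lists were chosen with earlier results of these data known. Named genes were all members and, from each list, those called or the 3 with the largest change, with copies and neighbours by name and the 3 nearest genes by correlation. Genes named beyond that rule (ACVR1B, ACVR2B, SOX17, BAMBI, BMP4) were chosen after their values were seen. Gene coordinates came from GENCODE release 29 on GRCh38.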

Additional observations from a re-analysis of the deposited data

Results flagged for a closer look

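Some members changed in opposite directions in the 2 lines between the same stages, each by at least 0.5 on the log2(FPKM + 1) scale, a limit chosen after the data were seen. With 1 library per line and stage the difference between the lines was not tested. From d10 to d16D NODAL changed by -2.06 in Ctrl and 0.79 in V1PAKI, GDF3 by -2.65 and 0.73, and FOXH1 by -3.00 and 0.79. From d16D to d16V LEFTY2 changed by 1.77 in Ctrl and -1.04 in V1PAKI, TDGF1 by 1.30 and -2.93, and FOXH1 by 0.97 and -1.93. All of these comparisons include the d16D library of each line, in which the endoderm markers summed to 417 FPKM in Ctrl and 2380 FPKM in V1PAKI. Whether cell content bears on these changes was not tested.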

How the results depend on the processing

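The call of TDGF1 against d0 held at d16V under every alternative run and at d16D under all but the fit without Ctrl d0. The other counts of called members moved with the setting. Shares of all genes called are given here only for the main fit, so counts from other settings have no such share beside them. For d4 minus d0 the count of 0 became 1 with median-of-ratios scaling and 2 with no block for line, and ranged from 0 to 2 with libraries left out. For d10 minus d4 it became 1 with either of these settings (0 to 1 with libraries left out). For d16D minus d0 the count of 1 became 2 with a pseudocount of 0.1, 2 with TPM and 3 with no block, and ranged from 0 to 4. For d16V minus d0 the count of 3 became 1 with no filter and ranged from 1 to 4. For d16D minus d10 the range was 0 to 2, for d16V minus d10 it was 0 to 5, and for d16V minus d16D and the line effect it stayed at 0. At single stages, by settings chosen after seeing the data, the count lower by at least 1 became 1 in place of 2 at d4 with median-of-ratios scaling, 5 in place of 3 at d10 with a pseudocount of 0.1, and 5 in place of 3 at d16V with a pseudocount of 0.1 or TPM.

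With libraries left out in turn, some values not called with all libraries changed sign. TDGF1 at d4 minus d0 ranged from -0.84 to 0.0697, CER1 at d10 minus d4 from -0.72 to 0.0944, and at d16D minus d0 NODAL from -0.74 to 1.46, LEFTY2 from -1.48 to 0.24 and GDF3 from -2.43 to 0.0243. At d16V minus d0 LEFTY2 ranged from -1.14 to 0.63 (0.19 without V1PAKI d0) and CER1 from -0.14 to 1.16. The causes were not tested. TPM moved the median of all genes from 0.06 to 0.26 at d16D minus d0 and from 0.07 to 0.30 at d16V minus d0. The labels give no replicate numbers. Stages were compared within line by the block for line, and the counts with no block stand above. With 1 library per line and stage, and unknown depth, line differences at a stage have no replicate check.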

Other observations

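BAMBI, a decoy receptor of the TGF beta family, and the ligand BMP4 showed the stage by line pattern of the members. At d10 BAMBI stood at 58.8 FPKM for Ctrl and 10.1 for V1PAKI, followed by 6.55 and 54.6 at d16D, and 11.1 and 1.50 at d16V. BMP4 stood at 27.3 and 6.31, 2.93 and 17.6, and 4.16 and 0.389 FPKM at the same stages. Other genes of their lists went the other way. Of 14 antagonists and feedback inhibitors 3, 9 and 4 were above Ctrl by value in V1PAKI at d10, d16D and d16V. Of 10 related ligands and convertases 2, 8 and 2 were. FST was higher in V1PAKI at d16V (55.7 against 31.1 FPKM in Ctrl) and GDF11 lower at d16D (7.72 against 16.8). DRAP1, a nuclear repressor that binds FOXH1, lay between 27.0 and 32.2 FPKM in 8 libraries and at 5.97 FPKM in Ctrl d0 and 5.68 FPKM in V1PAKI d10. These 2 libraries share neither line nor stage.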
